A study of Homo sapiens with 9 samples.

Results

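The G2/M and mitotic checkpoint genes described here are a fixed list of 48 genes that act at entry into mitosis, on the spindle and at the exit from mitosis. They were taken from the list by gene symbol, and all 48 were found among the 58096 gene IDs of the files. All 48 also passed the filter on low counts and were among the 16072 genes tested. By role they comprised 7 genes for cyclins, CDK1 and its phosphatases, 3 mitotic kinases, 5 spindle checkpoint genes, 4 genes of anaphase and mitotic exit, 6 of the kinetochore and centromere, 4 of the chromosomal passenger complex, 7 kinesin motors, 5 of spindle assembly, 4 of cytokinesis, and 3 of chromosomes and transcription.

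Total RNA was sequenced from ALL-SIL, a human T-cell acute lymphoblastic leukaemia line, after electroporation with an siRNA. The groups were TLX1 siRNA s46, TLX1 siRNA s47 and a scrambled siRNA that served as the non-targeting control, each with 3 libraries numbered 1 to 3 and labelled 24 h. The label of the scrambled group gives a dose of 400 nM, and the labels used here give no dose for s46 or s47. All 9 libraries came from a single cell line and from electroporated cells, so no comparison with cells that were not electroporated was made. TLX1 is a homeobox transcription factor that is expressed ectopically in a subset of these leukaemias, and the comparison of groups asks which transcripts differ once it is reduced.

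Transcripts of this set are low in G1, accumulate through S phase and peak in G2 and mitosis. Cyclin B binds CDK1 and starts mitosis, the spindle checkpoint holds CDC20 inactive until every kinetochore is attached, and the anaphase-promoting complex with CDC20 then marks securin and cyclin B for degradation. Many of these genes carry a cell cycle genes homology region (CHR) in the promoter, through which the DREAM complex represses them in G0 and G1 and MuvB complexes with MYBL2 and FOXM1 activate them later. In bulk RNA, fewer cells in G2 or mitosis and less RNA of these genes per cell cannot be told apart.

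Sense gene reads ranged from 21134650 to 33393740 per library, and the 48 genes together held 1.15% to 1.64% of them. TLX1 had 63.73, 87.32 and 78.69 CPM (reads of the gene scaled to library size) with s46 and 63.54, 73.71 and 75.01 CPM with s47, against 198.1, 188.2 and 171.3 CPM with scrambled siRNA, in the order of numbers 1, 2 and 3. Every TLX1 siRNA library lay below every scrambled one (log2 fold change -1.34 ± 0.11 SE, edgeR adjusted p 0.000394). The 8 T-lineage markers, among them CD3D, CD7 and LCK, summed to 1400 to 1600 CPM in TLX1 siRNA libraries and to 1340 to 1500 CPM in scrambled ones, while all 5 myeloid markers stayed under 1 CPM in each library. CD2, the lowest of the T-lineage markers, had 1.34 to 5.75 CPM. The 5 B-lineage markers summed to 10.4 to 14.8 CPM in TLX1 siRNA libraries and 11.1 to 13.3 CPM in scrambled ones. Of the 5 fibroblast markers 2 were at 0 and 4 under 1 CPM throughout, while the other, PDGFRB, had 10 to 18.4 CPM. Scrambled library 1 stood apart from the other libraries: 14.4% of its reads were multimapping, against 6.36% to 7.34% in the other 8, and it had the fewest sense gene reads. Across the 48 genes the standard deviation of its log2 CPM difference from the gene means was 0.46, against 0.09 to 0.21 in the other 8 libraries. Several results that rest on it are therefore given with and without it. Others, among them the role medians by replicate number and the correlations of genes outside the 48, are given only with it. Nothing in the labels says that libraries of a group were grown apart, so each p-value measures the spread between these libraries, and that spread may be technical.

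RefSeq promoters (GRCh38.p14, 250 bases before to 50 after the first start listed for a gene) were found for 40 of the 48 genes. AURKA, BUB3, TTK, UBE2C, BIRC5, TPX2, RACGAP1 and FOXM1 had no entry. The CHR words searched, on either strand, were TTTGAA and its variants, which are TTTAAA with a central A, TTCGAA with a central C, and CTTGAA with a leading C. A CHR word was present in 36 of the 40 promoters (90%), against 32.5% of all 27305 promoters of the same length. The CCAAT word, the binding motif of NF-Y, was present on either strand in 32 (80%), against 35.7% of all promoters. Both kinds of word were present in 30 (75%), against 12.7%. The 4 promoters with no CHR word were those of CDC25B, CDC25C, AURKB and NEK2. In 28 of the 40 (70%) a CHR word began within the last 100 bases before the start, against 11.8% of all promoters. TTTAAA reads the same on both strands and is an AT-rich word that can also form part of a TATA-like box, which these letters do not separate.

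The last 120 bases before the start are shown for 7 of the genes that differed by replicate number in the test given further on, because they display the shared words, and for KIF11, which did not pass that test and carries the words too. Each runs 5′ to 3′ on the strand of the gene, and capitals mark the CHR and CCAAT words and their reverse complements (TTCAAA and ATTGG).
CCNB1 (chr5:69167030-69167149, plus strand): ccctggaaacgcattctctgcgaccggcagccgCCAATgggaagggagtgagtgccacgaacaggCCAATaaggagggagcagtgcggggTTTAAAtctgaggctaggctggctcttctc
CCNB2 (chr15:59105026-59105145, plus strand): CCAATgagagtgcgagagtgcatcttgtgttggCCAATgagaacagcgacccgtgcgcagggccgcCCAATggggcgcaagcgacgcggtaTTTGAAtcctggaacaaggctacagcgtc
KIF20A (chr5:138178992-138179111, plus strand): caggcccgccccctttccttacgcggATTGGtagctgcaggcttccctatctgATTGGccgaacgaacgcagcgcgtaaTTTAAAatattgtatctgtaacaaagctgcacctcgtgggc
CDC20 (chr1:43358861-43358980, plus strand): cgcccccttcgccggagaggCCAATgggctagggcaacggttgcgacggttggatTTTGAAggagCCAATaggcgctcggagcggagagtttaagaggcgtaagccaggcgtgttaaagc
PTTG1 (chr5:160421735-160421854, plus strand): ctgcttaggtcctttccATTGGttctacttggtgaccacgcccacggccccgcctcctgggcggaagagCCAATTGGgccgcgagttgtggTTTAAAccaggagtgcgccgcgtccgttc
HMMR (chr5:163460512-163460631, plus strand): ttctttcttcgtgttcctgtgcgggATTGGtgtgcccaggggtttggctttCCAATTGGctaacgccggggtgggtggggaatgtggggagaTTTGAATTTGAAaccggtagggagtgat
ASPM (chr1:197146670-197146789, minus strand): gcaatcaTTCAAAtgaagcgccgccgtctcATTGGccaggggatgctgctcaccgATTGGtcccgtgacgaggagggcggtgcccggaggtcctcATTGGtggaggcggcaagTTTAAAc
KIF11 (chr10:92593010-92593129, plus strand): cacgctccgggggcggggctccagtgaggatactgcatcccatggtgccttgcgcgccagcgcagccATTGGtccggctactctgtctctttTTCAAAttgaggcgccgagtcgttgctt

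In CCNB1 and KIF20A a single CHR word of the TTTAAA form within these bases lies between the CCAAT words and the start. HMMR carries the TTTGAA form as a direct repeat, while in KIF11 the word lies on the other strand. The E2F words TTTCGCGC, TTTGGCGC and TTTCCCGC, searched on both strands, were present in 3 of the 40 promoters (7.5%; CDK1, CENPA and NUSAP1), against 2.79% of all promoters and 44.7% of 47 promoters of a list of G1/S and DNA replication genes. A CHR word was present in 19.1% of those 47. Of the 40 promoters, 9 belong to genes that differed by replicate number. All 9 held a CHR word, as did 27 of the 31 others (87.1%), so the word was not particular to genes that differed. CENPE and CENPF are among those 9 but are not shown above, and CENPE held no CCAAT word. Such words are matches of letters in a window and say nothing about binding.

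Levels were compared between genes as RPKM, the reads of a gene scaled to its exon length and to library size, averaged over 9 libraries. Exon length merges all annotated exons of a gene and can exceed that of the transcript made, so ranks are approximate. TOP2A, the topoisomerase that separates entangled sister chromatids, had the highest level at 270 RPKM, followed by the spindle protein NUSAP1 at 166 RPKM and the kinetochore protein CENPF at 135 RPKM. CCNA2, the cyclin of S phase and G2, was at 104 RPKM and CCNB1 at 64.6 RPKM, and their partner kinase CDK1 was at 72.9 RPKM. The lowest levels were those of the polo-like kinase PLK1 (8.73 RPKM) and of CDC25C (5.35 RPKM), a phosphatase that activates CDK1.

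The 48 genes stood highest in the libraries numbered 2, whichever siRNA was used. What a number stands for (a day, a culture or a preparation) is not stated in the labels used here. The median over the 48 genes of log2 CPM minus the gene mean was 0.21, 0.19 and 0.37 in the number 2 libraries of s46, s47 and scrambled. In number 1 libraries it was -0.19, -0.13 and -0.34, and in number 3 libraries -0.10, -0.02 and -0.07, in the same order of groups. The median over all genes tested was between -0.01 and 0.03 in each of the 9 libraries. In the number 2 libraries 43, 46 and 45 of the 48 genes lay above their own means.

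**Figure D1:**
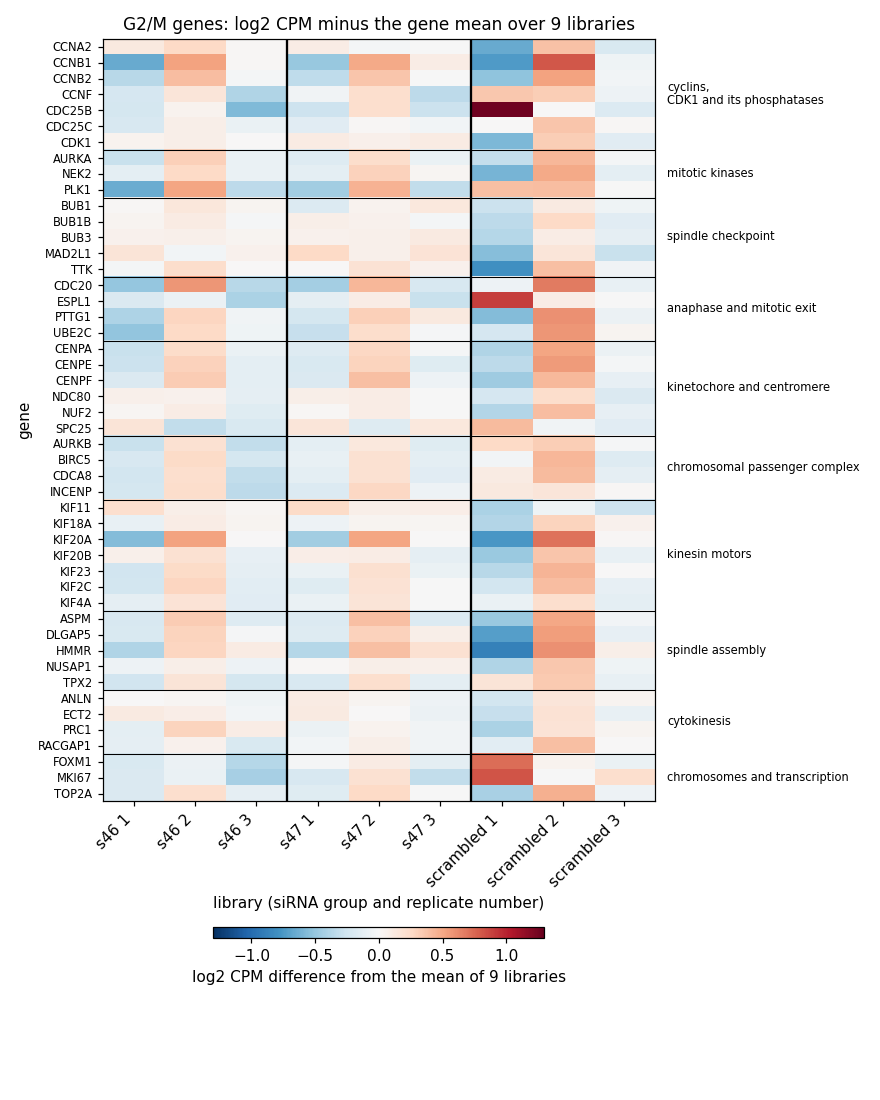
Log2 CPM of each of the 48 genes minus its mean over 9 libraries (colour, blue for below and red for above the mean), with libraries in columns by siRNA group and replicate number and genes in rows by role. The 3 columns of number 2 are mostly red, with medians of 0.21, 0.19 and 0.37, and the column of scrambled library 1 holds both the deepest blue and the deepest red cells.

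With siRNA group and replicate number as terms, 11 of the 48 genes (22.9%) differed between numbers, against 1.42% of all genes tested (edgeR quasi-likelihood F test with 2 degrees of freedom, adjusted p under 0.05). At an unadjusted p under 0.05 the share was 58.3% of the 48 genes (28), against 18.1% of all genes. All 11 had their highest level at number 2 in each of the 3 groups, and 9 of them also had their lowest at number 1 in each group. Over the whole set, 32 genes (66.7%) were highest at number 2 within each group, against 8.17% of all genes. Number 1 was lowest within each group for 19 genes (39.6%), against 10.5% of all genes. Of the 229 genes called over the whole table, 72 had their highest fitted level at number 2, so a peak at number 2 was not the common pattern among calls in general.

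CCNB1, the cyclin that drives entry into mitosis (chromosome 5, 69167010 to 69178245, GRCh38), had 223.9 CPM with s46, 218.2 CPM with s47 and 271.8 CPM with scrambled siRNA in the number 2 libraries. Its number 1 libraries had 98.28, 110.5 and 93.12 CPM and its number 3 libraries 156.6, 166.3 and 149.4 CPM, in the same order of groups. The 3 numbers did not overlap, whichever siRNA was used. The log2 difference of number 2 minus number 1 was 1.24 ± 0.12 (SE, edgeR adjusted p 0.00567), which is 2.37-fold.

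KIF20A, a kinesin of the central spindle that is needed for cytokinesis (chromosome 5, 138178719 to 138187715), had 110.7, 110.4 and 125.7 CPM at number 2 with s46, s47 and scrambled siRNA. At number 1 it had 52.06, 56.17 and 45.53 CPM, and at number 3 it had 77.58, 77.61 and 78.14 CPM. The numbers again stayed apart in every group, and libraries of number 3 were almost equal across siRNAs. The log2 difference of number 2 minus number 1 was 1.17 ± 0.11 (SE, edgeR adjusted p 0.00486), the lowest adjusted p in the set.

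CDC20, the activator of the anaphase-promoting complex (chromosome 1, 43358955 to 43363203), had 146.2, 133.1 and 157.2 CPM at number 2 with s46, s47 and scrambled siRNA. At number 1 it had 69.48, 72.64 and 93.70 CPM, and at number 3 it had 76.67, 85.13 and 92.05 CPM. Here number 2 stood alone while numbers 1 and 3 overlapped (log2 difference of number 2 minus number 1 0.90 ± 0.10 SE, edgeR adjusted p 0.00682).

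Of the other 8 genes that differed by number, HMMR, a spindle-associated hyaluronan-binding protein, averaged 164.7 ± 18.8 CPM at number 2 and 84.88 ± 16.1 CPM at number 1 (SD, n = 3 each). The second B-type cyclin, CCNB2, averaged 157.2 ± 9.42 CPM at number 2 and 88.48 ± 6.16 CPM at number 1. PTTG1, the securin that inhibits separase, averaged 90.12 ± 11 CPM at number 2 and 51.90 ± 6.01 CPM at number 1. The ranges of number 2 and number 1 did not overlap for any of these 3 genes. UBE2C, the ubiquitin-conjugating enzyme of the anaphase-promoting complex, showed a log2 difference of number 2 minus number 1 of 0.70 ± 0.10 (SE), and ASPM, a spindle pole protein, one of 0.69 ± 0.12. For the kinetochore proteins CENPF and CENPE the differences were 0.66 ± 0.11 and 0.65 ± 0.11, and for the mitotic kinase AURKA 0.58 ± 0.10. By edgeR, adjusted p for these 8 ran from 0.0133 (CCNB2) to 0.0425 (AURKA and ASPM).

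**Figure D2:**
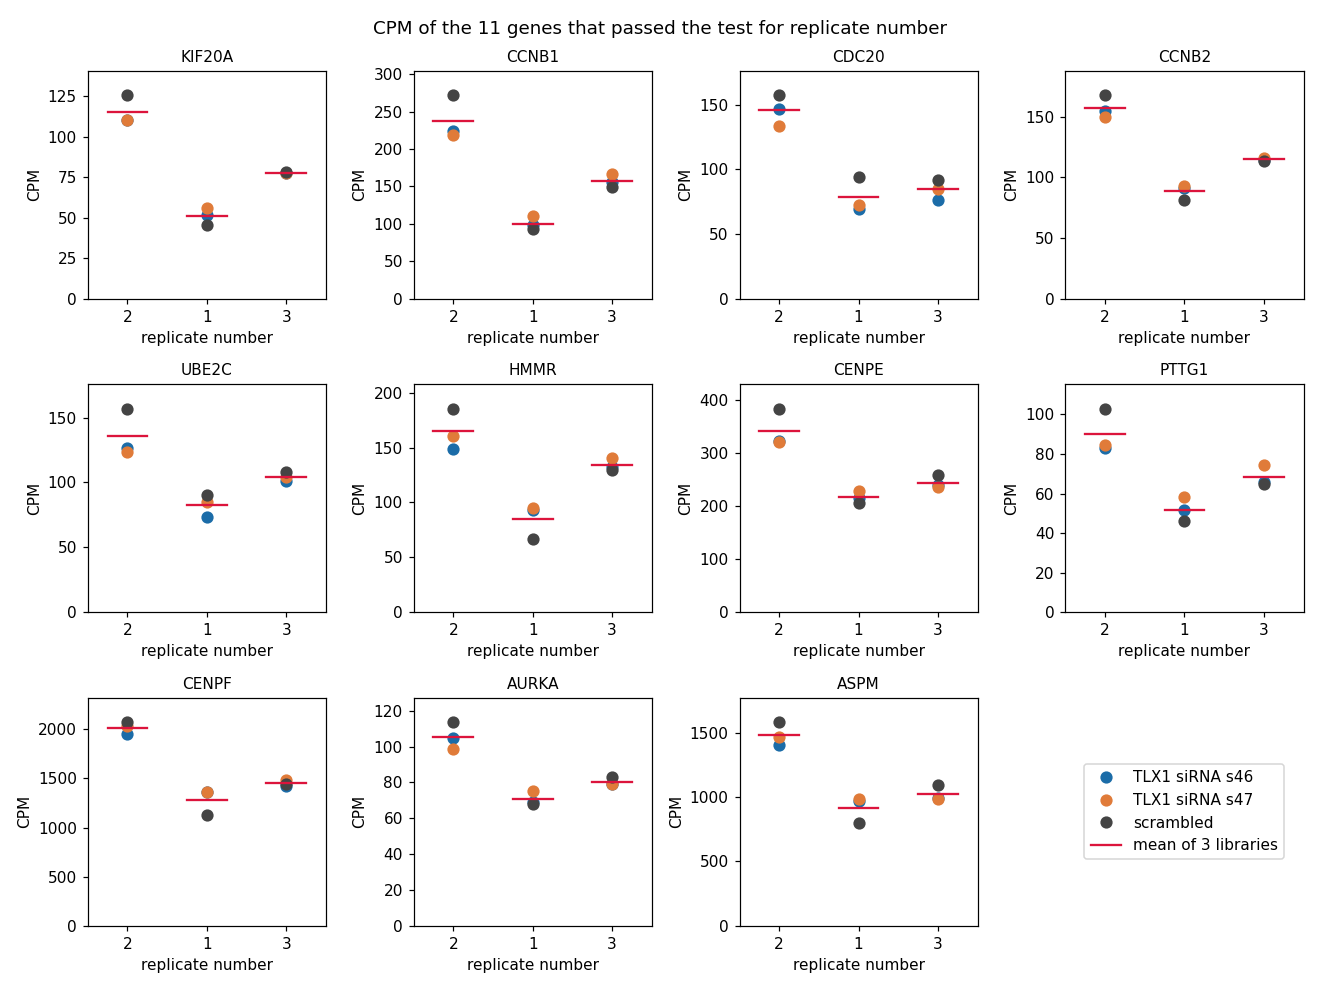
CPM on linear axes from 0 for the 11 genes that differed by replicate number, with numbers 2, 1 and 3 from left to right, 1 point per library coloured by siRNA group (close values overlap), and a line at the mean of 3 libraries. In each panel the 3 number 2 libraries lie above all others; for CCNB1 they span 218.2 to 271.8 CPM.

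The roles differed in how far number 2 exceeded number 1. The median log2 difference was 0.75 over 4 genes of anaphase and mitotic exit (3 called), 0.69 over 5 genes of spindle assembly (2 called), 0.64 over 3 mitotic kinases (1 called) and 0.47 over 6 kinetochore and centromere genes (2 called). It was 0.34 over 4 chromosomal passenger genes (0 called), 0.32 over 7 kinesins (1 called), 0.29 over 7 genes for cyclins, CDK1 and its phosphatases (2 called), 0.21 over 5 spindle checkpoint genes (0 called) and 0.19 over 4 cytokinesis genes (0 called). Chromosomes and transcription, with FOXM1, MKI67 and TOP2A, had a median of -0.10 (0 called). That median rested on scrambled library 1, without which FOXM1 had 0.10, MKI67 0.15 and TOP2A 0.45. MAD2L1, the checkpoint protein that binds CDC20, had a difference of 0.11 ± 0.17 (SE) and BUB3 one of 0.16 ± 0.11, while TTK, the kinase that recruits them, had 0.53 ± 0.18, and none of these passed the test. Without scrambled library 1 MAD2L1 had -0.10, BUB3 0.05 and TTK 0.26. In that fit, which called 13.3% of all genes, TTK (edgeR adjusted p 0.036) and TOP2A (edgeR adjusted p 0.00329) passed. The role medians by number are given with all 9 libraries only, and the order of roles was not tested.

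CENPA, the centromeric histone variant, lay just outside the threshold with a log2 difference of number 2 minus number 1 of 0.62 ± 0.11 (SE, edgeR adjusted p 0.0537). Over the 48 genes the median difference of number 2 minus number 1 was 0.33 (43 genes above 0), and of number 2 minus number 3 it was 0.34 (47 above 0). The median of number 3 minus number 1 was 0.09 (32 above 0). Medians over all genes tested were 0.01, 0.01 and 0 in the same order.

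SPC25, a subunit of the NDC80 kinetochore complex, was the 1 gene below 0 both for number 2 minus number 1 and for number 2 minus number 3 (-0.42 ± 0.13 SE and -0.11, not called). It had 15.43, 17.18 and 18.68 CPM at number 2 with s46, s47 and scrambled siRNA, against 21.59, 21.42 and 25.63 CPM at number 1. Its partners NDC80 and NUF2 had positive differences of 0.15 and 0.31, which did not pass either. The other 4 genes below 0 for number 2 minus number 1 were CDC25B (-0.20), ESPL1 (-0.17), FOXM1 (-0.16) and MKI67 (-0.10). Without scrambled library 1 these 4 had differences of 0.32, 0.12, 0.10 and 0.15, above 0, and SPC25 had -0.35. In the same fit KIF11 (-0.13), MAD2L1 (-0.10), ECT2 (-0.04) and ANLN (-0.02) turned below 0. The count of genes of the set above 0 therefore stayed at 43.

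The count of 11 depended on single libraries. Without scrambled library 1 it was 28, against 13.3% of all genes, and all 11 were among them. Without scrambled library 2 it was 18, against 6.18% of all genes. Leaving out s46 library 1 or scrambled library 3 gave 0 by edgeR (25 and 26 genes at an unadjusted p under 0.05), against 0.145% and 0.0913% of all genes. Without s46 library 2 it was 2 and without s46 library 3 it was 3, against 0.188% and 0.207%. Without s47 libraries 1, 2 and 3 it was 4, 4 and 3, against 0.507%, 0.585% and 0.189%. In each of these fits the median difference of number 2 minus number 1 stayed between 0.31 and 0.42. In the 6 TLX1 siRNA libraries alone, a fit chosen after the data were seen, 37 of the 48 genes differed by number, with all 11 among them and 32.2% of all genes called. Among those 37, SPC25 (-0.41), MAD2L1 (-0.21), KIF11 (-0.17) and ECT2 (-0.08) were lower at number 2 than at number 1, and the rest were higher.

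Number 1 libraries also differed from the others in how their reads were assigned. Ambiguous reads made up 2.71%, 3.25% and 2.12% of reads in the number 1 libraries of s46, s47 and scrambled, against 3.61% to 3.88% at number 2 and 3.70% to 4.44% at number 3. Unmapped reads were 5.43%, 5.61% and 6.70% at number 1, against 4.61% to 4.94% at number 2 and 4.52% to 5.08% at number 3. T-lineage markers summed to 1480 to 1600 CPM at number 2 and to 1340 to 1500 CPM in the other libraries. The part of these differences in the result for the 48 genes was not tested.

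Other cell cycle genes were read from 7 further lists. Of 55 G1/S and DNA replication genes, 7 (12.7%) differed by number, all 7 with lower levels at number 2 than at number 1, and the list's median log2 difference was -0.33. TK1, the thymidine kinase of S phase, had 62.88, 67.57 and 71.54 CPM at number 2 with s46, s47 and scrambled siRNA, against 120.7, 135.7 and 162.0 CPM at number 1 (-1.04 ± 0.10 SE, edgeR adjusted p 0.00460). RRM2, a ribonucleotide reductase subunit, had 294.6, 283.2 and 304.9 CPM at number 2, against 581.5, 570.3 and 549.0 CPM at number 1 (-0.95 ± 0.10, edgeR adjusted p 0.00748). The replication initiation factors CDC45 (-0.73) and MCM10 (-0.65) were also lower at number 2. Without scrambled library 1 the G1/S median was -0.39 with 40 of 55 called, in a fit that called 13.3% of all genes.

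Genes closer to the set went with it only in part, and 1.42% of all genes tested differed by number. UBE2S, which extends ubiquitin chains with the anaphase-promoting complex, was the 1 of 17 genes of that list to differ (0.70 ± 0.12 SE, edgeR adjusted p 0.0362). Of 31 other spindle and cytokinesis genes 2 differed, the spindle proteins KNSTRN (0.80 ± 0.12) and FAM83D (0.64 ± 0.09), both higher at number 2. In the DREAM and MuvB list 2 of 15 differed and both were lower at number 2, namely the activator MYBL2 (-0.83 ± 0.13) and the repressor E2F7 (-0.62 ± 0.11). None of 14 mitotic entry regulators, 19 condensin and cohesin genes and 32 other centromere and kinetochore genes passed. Their median log2 differences were -0.08, -0.17 and -0.12. Their 2 lowest unadjusted p-values each were those of PKMYT1 (-0.77) and BORA (0.49), CDCA5 (-0.40) and NCAPD3 (-0.33), and DSN1 (-0.43) and PMF1 (-0.44). In the fit without scrambled library 1, which called 13.3% of all genes, these lists had 5, 6 and 11 genes that differed. Their medians were then -0.09, -0.21 and -0.25. In the same fit 3 of 17 genes of the anaphase-promoting complex list (median 0.04) and 12 of 31 other spindle and cytokinesis genes (0.16) differed. So did 6 of 15 DREAM and MuvB genes (-0.21).

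**Figure D3:**
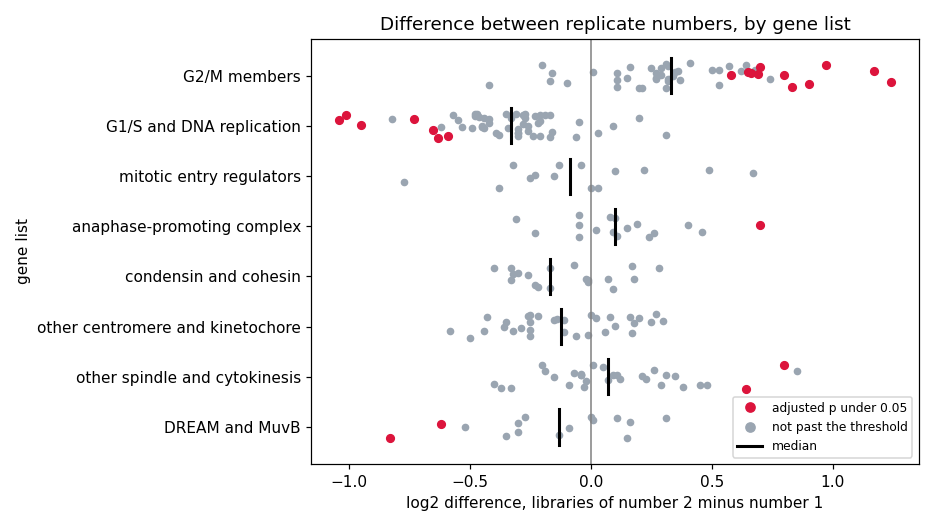
Log2 difference of number 2 minus number 1 libraries for each gene of the set and of 7 other cell cycle lists (points, spread vertically at random, red where the adjusted p for number was under 0.05), with a line at each median. The set has a median of 0.33 and the G1/S and DNA replication list one of -0.33.

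A mean profile of the 48 genes over the 9 libraries was made from log2 CPM, with each gene centred on its mean and divided by its SD. Of the genes outside the 48, those with profiles closest to it were ARL6IP1 (Pearson r 0.989), BORA (0.977), ZNF600 (0.969), KPNA2 (0.967) and TUBA1C (0.966). The 11384 genes compared were those above a minimum mean level. ARL6IP1 had 716.8, 717.5 and 868.3 CPM at number 2 with s46, s47 and scrambled siRNA, against 424.6, 449.7 and 360.5 CPM at number 1. These correlations are a description of 9 libraries that share groups and numbers. Among the 48 genes, SPC25 had the lowest correlation with the mean of the other 47, scaled in the same way (r -0.59, and -0.37 without scrambled library 1).

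Between the TLX1 siRNAs and scrambled siRNA, none of the 48 genes passed the test. For the mean of s46 and s47 against scrambled, 0 of 48 were called, against 0.566% of all genes (edgeR adjusted p under 0.05), and the count was 0 by DESeq2 and by limma-voom. At an unadjusted p under 0.05 there were 6 genes (12.5%; 2 higher and 4 lower), against 17.8% of all genes. The median log2 fold change was -0.03 over the 48 genes, the same as over all genes tested, with 19 above 0 and 29 below.

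KIF11, the kinesin that pushes spindle poles apart (chromosome 10, 92593286 to 92655395), had the highest log2 fold change. It had 431.7, 390.0 and 375.7 CPM with s46 and 440.1, 389.0 and 394.1 CPM with s47, against 278.4, 356.4 and 307.0 CPM with scrambled siRNA. Its 6 TLX1 siRNA libraries all lay above the 3 scrambled ones. It was the 1 gene of the 48 (2.08%) whose groups did not overlap, against 8.12% of all genes. Its log2 fold change was 0.36 ± 0.11 (SE, 95% interval 0.14 to 0.58, edgeR adjusted p 0.180), and 0.28 without scrambled library 1.

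MAD2L1 had 212.8, 185.5 and 197.4 CPM with s46 and 227.5, 198.1 and 214.6 CPM with s47, against 129.2, 212.3 and 155.3 CPM with scrambled siRNA. Its groups overlapped through scrambled library 2 (0.31 ± 0.14 SE, edgeR adjusted p 0.271). BUB3, which carries BUB1 and BUB1B to kinetochores, came next with 0.18 ± 0.11 (edgeR adjusted p 0.397). Without scrambled library 1 the values were 0.16 for MAD2L1 and 0.07 for BUB3.

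CDC25B, a phosphatase that activates CDK1 (chromosome 20, 3786772 to 3806121), had the lowest log2 fold change. It had 133.6, 161.7 and 105.0 CPM with s46 and 129.7, 182.4 and 129.3 CPM with s47, against 375.7, 157.0 and 138.3 CPM with scrambled siRNA. Scrambled library 1 was the high one, and the other scrambled libraries lay within the range of the TLX1 siRNA ones. Its log2 fold change was -0.67 ± 0.29 (SE, edgeR adjusted p 0.275), and -0.07 ± 0.16 without that library.

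MKI67, the proliferation marker Ki-67 that coats mitotic chromosomes (chromosome 10, 128096659 to 128126385), had 822.5, 879.5 and 695.1 CPM with s46 and 808.7, 1071 and 750.3 CPM with s47, against 1651, 933.9 and 1087 CPM with scrambled siRNA. Its log2 fold change was -0.55 ± 0.17 (SE, edgeR adjusted p 0.189), and -0.27 ± 0.13 without scrambled library 1. ESPL1, the separase that cleaves cohesin at anaphase (chromosome 12, 53268299 to 53293643), had 104.9, 113.4 and 90.15 CPM with s46 and 110.1, 127.9 and 98.30 CPM with s47, against 223.2, 127.8 and 119.6 CPM with scrambled siRNA. Both genes were highest in scrambled library 1, and for both the groups overlapped. The log2 fold change of ESPL1 was -0.55 ± 0.18 (SE, edgeR adjusted p 0.195), and -0.20 ± 0.11 without that library. FOXM1, the transcription factor that activates many genes of the set, showed the same feature, with 127.3 CPM in scrambled library 1 and 59.81 to 82.84 CPM in the other 8 libraries. The log2 fold change of FOXM1 was -0.38 ± 0.16 (SE, edgeR adjusted p 0.253), and -0.09 ± 0.10 without scrambled library 1.

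**Figure D4:**
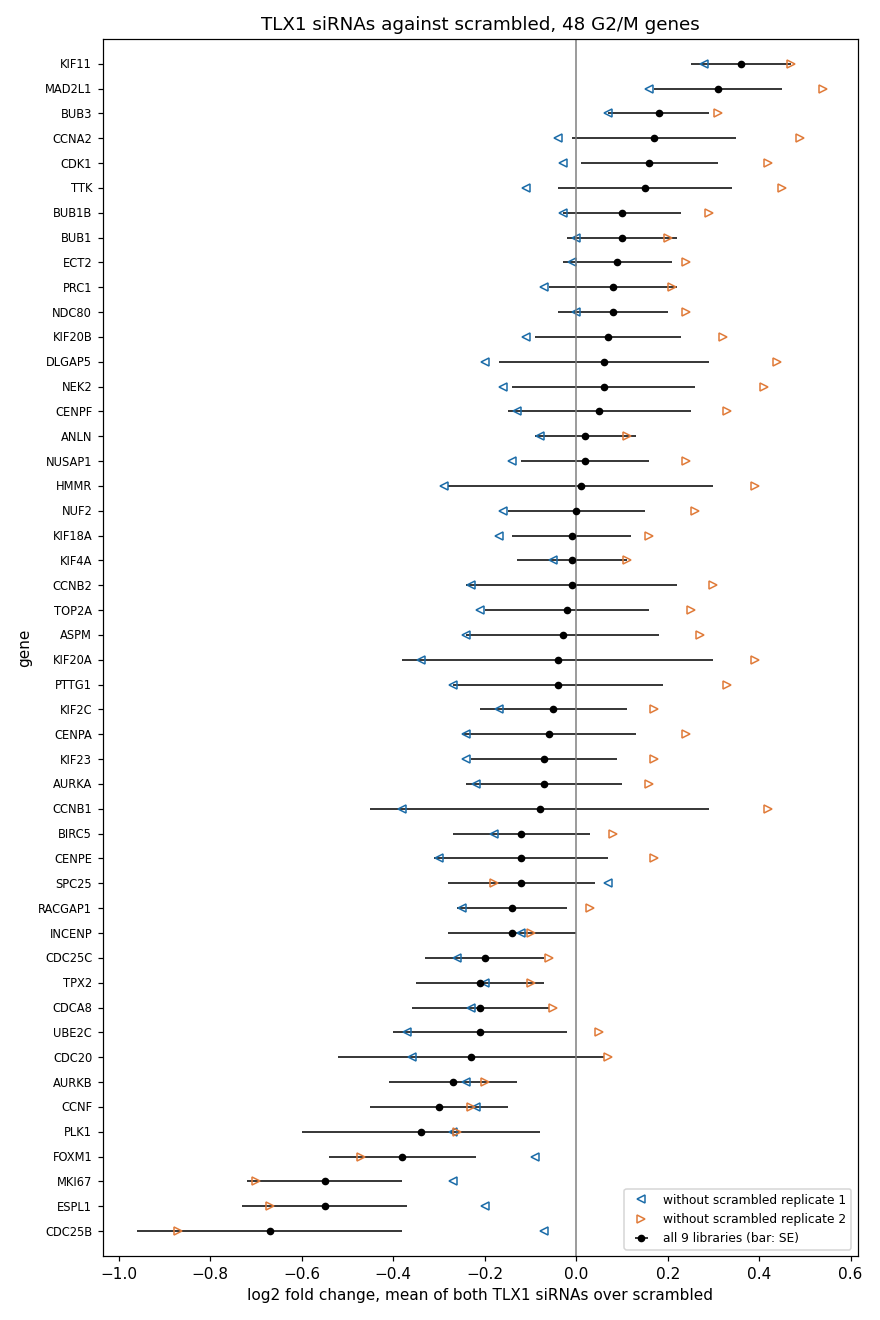
Log2 fold change of the mean of both TLX1 siRNAs over scrambled siRNA for the 48 genes, ordered by size (black points, bars of 1 SE), with the same value after scrambled library 1 (blue) or scrambled library 2 (orange) was left out. CDC25B is lowest at -0.67 and moves to -0.07 without scrambled library 1; KIF11 is highest at 0.36.

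By role, the median log2 fold change was 0.15 over the spindle checkpoint genes, 0.05 over cytokinesis, 0.01 over spindle assembly, -0.01 over kinesins and -0.03 over kinetochore and centromere genes. It was -0.07 over mitotic kinases, -0.08 over cyclins, CDK1 and its phosphatases, -0.17 over the chromosomal passenger complex, -0.22 over anaphase and mitotic exit and -0.38 over chromosomes and transcription. Without scrambled library 1 the medians of 9 roles lay below 0, from -0.31 (anaphase and mitotic exit) to -0.08 (cytokinesis), with -0.21 for chromosomes and transcription, and that of the spindle checkpoint was 0. The genes with the clearest differences by number had siRNA differences near 0 with wide errors: CCNB1 had -0.08 ± 0.37 (SE, 95% interval -0.80 to 0.64), KIF20A -0.04 ± 0.34 and HMMR 0.01 ± 0.29. Those errors come from the fit by siRNA group alone, which holds no term for replicate number.

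The sign of the set as a whole turned with single scrambled libraries. Without scrambled library 1 the median log2 fold change was -0.18 (-0.009 over all genes), with 5 of 48 above 0. In that fit 0 of 48 were called, against 0.666% of all genes. Without scrambled library 2 it was 0.21, with 36 above 0, and 6 genes (12.5%) passed the test (edgeR), a share near the 10.1% of all genes called in that fit. Of those 6, MAD2L1 (0.54, adjusted p 0.0240), CCNA2 (0.49, adjusted p 0.0398), KIF11 (0.47, adjusted p 0.0293) and CDK1 (0.42, adjusted p 0.0488) were higher, while MKI67 (-0.70, adjusted p 0.0307) and ESPL1 (-0.67, adjusted p 0.0481) were lower with the TLX1 siRNAs. Without scrambled library 3 the median was -0.08. It was -0.12 and -0.09 without number 2 of s46 and s47, and 0.02 without number 1 of either.

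**Figure D5:**
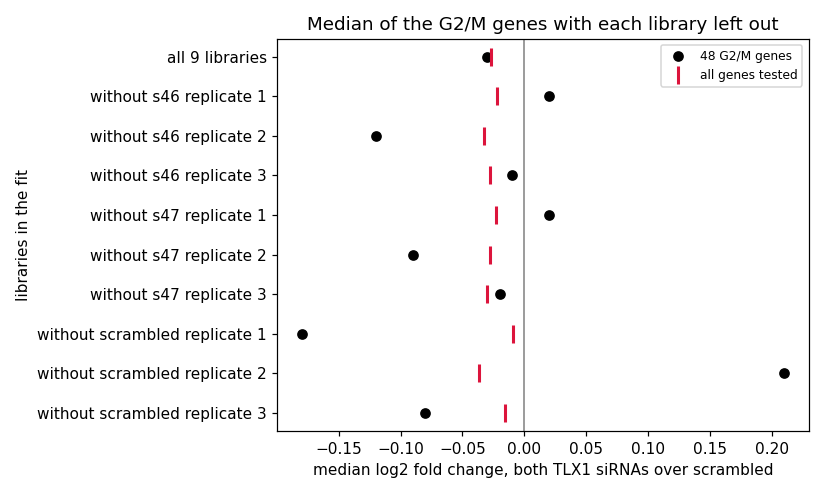
Median log2 fold change of the mean of both TLX1 siRNAs over scrambled siRNA, over the 48 genes (points) and over all genes tested (red ticks), with all 9 libraries and with each library left out. The median over the 48 genes is 0.21 without scrambled library 2 and -0.18 without scrambled library 1, while that over all genes stays close to 0.

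Set against the scrambled library of the same number, the 48 genes lay higher at number 1 (median log2 difference 0.16 with s46 and 0.26 with s47, 32 genes above 0 with each). Over all genes the median there was -0.05 with each, and 47.3% and 47.4% lay above 0. These number 1 values rest on scrambled library 1, which stood apart from the other libraries. The 48 genes lay lower at number 2 (-0.17 with s46 and -0.20 with s47, 6 and 7 genes above 0). Over all genes the median at number 2 was 0 with each, and 50.4% and 50.6% lay above 0. At number 3 the medians were -0.03 with s46 and 0.03 with s47. Both siRNAs share the scrambled library at each number, so the values of s46 and s47 are not independent.

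With s46 alone, 0 of 48 genes passed, against 0.174% of all genes, and 4 (8.33%; 1 higher and 3 lower) had an unadjusted p under 0.05, against 11.9%. With s47 alone, 0 passed, against 0.330%, and 4 (8.33%; 2 higher and 2 lower) had an unadjusted p under 0.05, against 12.3%. The 2 comparisons share the scrambled libraries. The median log2 fold change was -0.06 with s46 and -0.02 with s47, and KIF11 had 0.35 with s46 and 0.38 with s47. Set directly against each other, s46 and s47 differed in 0 of the 48 genes, against 0% of all genes (edgeR), and 0 had an unadjusted p under 0.05, against 0.703%. By DESeq2 and limma-voom the count was 0 too. The median log2 difference of s46 minus s47 was -0.04, with 38 of 48 genes below 0 and a range from -0.20 to 0.12. Of the 48 genes 20.8% lay above 0, against 50.3% of all genes. The direction turned with single libraries: 29, 4 and 27 genes lay above 0 without s46 libraries 1, 2 and 3. Without s47 libraries 1, 2 and 3 the counts above 0 were 7, 36 and 4.

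Of 183 genes tested in the 7 further cell cycle lists, 1 (0.546%) passed in the comparison of both TLX1 siRNAs with scrambled siRNA, close to the 0.566% of all genes. TFDP2, a dimerization partner of E2F factors, was higher with the TLX1 siRNAs (log2 fold change 0.53 ± 0.11 SE, edgeR adjusted p 0.0482). It lost its call without each of the 6 TLX1 siRNA libraries and without scrambled library 3 (adjusted p 0.0733 to 0.159), while its log2 fold change stayed at 0.51 to 0.57 in those fits. The list medians were 0.14 for G1/S and DNA replication, 0.12 for mitotic entry regulators, 0.17 for the anaphase-promoting complex and 0.14 for condensin and cohesin. They were 0.15 for other centromere and kinetochore genes, -0.04 for other spindle and cytokinesis genes and 0 for DREAM and MuvB. The median over all genes tested was -0.03. These list medians are given with all 9 libraries only, scrambled library 1 among them. In the G1/S list UHRF1 (0.35 ± 0.10 SE) and POLD3 (0.45 ± 0.16) had the lowest unadjusted p-values and did not pass (edgeR adjusted p 0.159 and 0.213).

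Near-identical copies of the genes held few reads. Of 18 pseudogenes and paralogues with a related name, such as KIF4B, PTTG2 and AURKAP1, none exceeded 0.67 CPM in any library. Reads that matched a gene and its copy equally are not in the gene counts, so the levels of KIF4A, PTTG1 and AURKA are uncertain to that extent. On the strand opposite the annotated genes, 27 of the 48 had enough reads to be tested, and 0 passed in any of the 5 comparisons by edgeR (0 at an unadjusted p under 0.05 in the 4 siRNA comparisons and 2 for replicate number). Of all 9964 genes tested on that strand, 0 to 2 passed in the siRNA comparisons and 68 for replicate number. The 0 of 27 therefore does not set these genes apart.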

How the data were processed

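For each library, the authors deposited a table of raw counts of reads per gene. The submitters' processing notes name GRCh38 as the build; which aligner, counter and annotation made the tables is not given in the sources used here. The tables hold counts with strand ignored and for either strand alone. The kit is stranded per the labels' protocols, and the column with most gene reads was taken as sense. Its first 4 lines (unmapped, multimapping, outside genes, ambiguous), which stand for no gene, entered neither library sizes nor tests. They were 4.52% to 6.70%, 6.36% to 14.4%, 23.8% to 36.8% and 2.12% to 4.44% of reads. Of 58096 gene IDs, 57488 matched GENCODE 29 without regard to version.

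Genes were kept by filterByExpr with a minimum count of 10, given TMM factors and fitted with edgeR 4.0.16 under R 4.3.3 (robust quasi-likelihood F test), in a fit of all 9 libraries by siRNA group. A second fit added replicate number. The Benjamini-Hochberg adjustment ran over all 16072 genes, and 0.05 was the threshold. The script was tested on simulated data. Standard errors (SE) come from the F statistics, log2 CPM uses a prior count of 2, and CPM values are TMM-scaled. The alternatives tried were DESeq2 1.42.0, limma-voom (limma 3.58.1), other scalings, other filters, unstranded counts, replicate number as a term, fits of the groups compared and leaving out libraries. All 48 genes could be named. Genes of other lists were named when called, up to 4 by adjusted p, otherwise the 2 with the lowest p. The 48 genes and the lists were chosen with earlier results of these data known.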

Additional observations from a re-analysis of the deposited data

Results flagged for a closer look

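The median of the 48 genes lay on opposite sides of 0 at numbers 1 and 2 when each TLX1 siRNA library was set against the scrambled library of its own number. At number 1 the median log2 difference was 0.16 for s46 minus scrambled and 0.26 for s47 minus scrambled, while at number 2 it was -0.17 for s46 and -0.20 for s47. The median over all genes was -0.05 at number 1 and 0 at number 2 with either siRNA. The number 1 values rest on scrambled library 1, which stood apart from the other libraries. Each number has 1 library per group, so the difference between numbers was not tested. The scrambled libraries held the lowest and the highest medians of all 9 libraries, -0.34 at number 1 and 0.37 at number 2. The formal test for a single outlying sample within a group needs at least 4 samples and was not run on these groups of 3.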

How the results depend on the processing

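The count of genes called over the whole table for both TLX1 siRNAs, 91, was 458 with DESeq2, 876 with no filter on low counts, and 22 to 1650 with 1 library left out. Of the 48 genes, 2 were called with no filter for both siRNAs (ESPL1 and MKI67). With no filter 2 were also called for s46 alone, where 384 genes were called over the whole table. With 1 library left out, 0 to 6 were called for both siRNAs. For s47 alone the range was 0 to 1. The 1 was reached without scrambled library 2, where 275 genes were called over the whole table. Replicate number called 11 of the 48, against 1.42% of all genes. The count was 24 with no filter (5.22% of all genes) and 7 with unstranded counts (1.19%). With library totals it was 13 (1.42%), with DESeq2 size factors 8 (1.45%) and with upper quartile scaling 12 (1.49%). The TLX1 siRNA libraries alone gave 37 (32.2%), and leaving out 1 library gave 0 to 28 (0.0913% to 13.3%). The cause was not tested. Without the 3 libraries of number 1 the median of the 48 genes for both siRNAs was -0.12, with 4 above 0, and over the alternatives 1 to 17 of the 48 log2 fold changes turned sign. TLX1 kept its call in every alternative run. With library totals the median over all genes moved to -0.094 and that of the 48 genes to -0.09. The call of TFDP2 was lost with library totals (adjusted p 0.0737), upper quartile scaling (0.0599) and unstranded counts (0.0674). With replicate number as a block, 222 genes were called and 0 of the 48, with a median of 0; 12 of the 48 (25%) had an unadjusted p under 0.05, against 22.6% of all genes, and CCNB1 had -0.01 ± 0.10 (SE), against -0.08 ± 0.37 without the block. Correlations between libraries were taken over all genes tested, on log2 CPM after the mean of each gene in its own group was subtracted. On that scale same-numbered libraries of different groups correlated above 0.1 in 8 of 9 pairs, and s47 and scrambled libraries of number 2 at -0.03. Over the 48 genes alone the 9 pairs had r from 0.22 to 0.94. The labels state no pairing, so the main siRNA fit did not pair libraries by number. Over all genes, 7 of 9 libraries correlated best with their own number in both other groups, a hint from the data, not the design. Each group had 3 libraries, which limits the precision of every value.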
